A study of Mus musculus with 89 samples.

Results

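The transcription factor genes of the granule neuron lineage described here are Eomes, Neurog2, Neurod1, Neurod2, Neurod4, Prox1, Sox4, Sox11 and Nhlh1. They were chosen by name, not by a threshold on their values, and are 9 of the 24411 genes listed in the deposited tables. The series compares neural stem and progenitor cells of the dentate gyrus at 2 ages of adult mice. It holds 89 single cells, 41 from mice aged 4.5 months and 48 from mice aged 2 months, and every mouse was C57BL/6 and homozygous for Nestin:CFPnuc, a nuclear cyan fluorescent reporter driven by Nestin sequences that are active in neural stem and progenitor cells. Cells of the dissected dentate gyrus were sorted singly and their RNA was amplified with the SMART-Seq v4 full-length kit. A deposited table gave each cell a class, read here as quiescent neural stem cell (qNSC, 60 cells, 28 at 4.5 months and 32 at 2 months), activated neural stem cell (aNSC, 18 cells, 7 at 4.5 months and 11 at 2 months) and intermediate progenitor cell (IPC, 11 cells, 6 at 4.5 months and 5 at 2 months).

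The labels do not tie cells to animals, so each age is 1 sample, cells are not replicates, and no test or p-value is given. Values are descriptions of these cells; an SD is over cells, and intervals cover counting error only. The classes were presumably assigned from the same expression values, so differences between classes are in part built in. The ages also differed in sex-linked transcripts: Y-linked genes had 10 or more reads in 0 of 41 cells at 4.5 months and in 38 of 48 cells at 2 months. Xist reached that number in 15 of 41 older cells and in 0 of 48 younger ones. Age and sex cannot be told apart here.

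In the hippocampus, granule neurons are made throughout life from radial glia-like stem cells that pass through dividing intermediate progenitors and migrating neuroblasts. The transition is driven by a relay of basic helix-loop-helix (bHLH) proneural factors, which pair with E proteins, bind E-box DNA and are held back by Id, Hes and Hey proteins downstream of Notch and BMP signals. Neurog2 and the T-box factor Eomes (Tbr2) act in progenitors, Neurod1 and Prox1 act in the survival and granule identity of newborn neurons, Neurod2 is a factor of more mature neurons, Neurod4 and Nhlh1 are neuronal bHLH factors, and the SoxC factors Sox4 and Sox11 open the neuronal gene programme.

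Total counts per cell ran from 234607 to 1896072, and the median cell had 912391. Median totals were 918275 in qNSC, 823468 in aNSC and 952296 in IPC, and the median numbers of genes with a read were 3713.5, 4768 and 4647 in that order of classes. In 12 cells, 4 qNSC, 8 aNSC and 0 IPC, at least 50% of the markers of another cell type had 10 or more reads. Pdgfra, a receptor of oligodendrocyte precursors, reached 10 reads in 7 of the 18 aNSC cells. The class IPC was looked at with 7 progenitor markers that are not among the genes described (Igfbpl1, Mfap4, Insm1, Elavl4, Mfng, Gadd45g and Hes6). The class may rest on these same values, so they are no independent check of it. IPC cells had 10 or more reads of a median of 6 of them (range 3 to 7), and at least 4 were so detected in 10 of 11 IPC cells, 1 of 18 aNSC cells and 0 of 60 qNSC cells.

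All 9 genes are protein-coding. On GRCm38 (mm10), by the GENCODE M21 annotation, Eomes (ENSMUSG00000032446) lies at chr9:118478212-118486132, Neurog2 (ENSMUSG00000027967) at chr3:127633135-127635631 and Prox1 (ENSMUSG00000010175) at chr1:190118035-190170714. The SoxC genes are single-exon genes, Sox4 (ENSMUSG00000076431) at chr13:28948919-28953713 and Sox11 (ENSMUSG00000063632) at chr12:27334264-27342574. Neurod1 (ENSMUSG00000034701) lies at chr2:79452521-79456751, Neurod2 (ENSMUSG00000038255) at chr11:98325415-98329648, Neurod4 (ENSMUSG00000048015) at chr10:130268152-130280240 and Nhlh1 (ENSMUSG00000051251) at chr1:172052292-172057573. The library kit does not mark strand. The exons of Sox4 overlap those of antisense Gm26735 over 2616 bases, those of Prox1 overlap antisense Prox1os over 133 bases, those of Eomes overlap antisense Gm33460 over 118 bases, and Neurod1 overlaps Cerkl and Gm26755 over 201 bases in all. Reads there cannot be told apart from the gene's own. Cerkl had a read in 0 of the 11 IPC cells.

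E-boxes are the sites that bHLH factors bind, and several of these genes are themselves bHLH factors that were read in the same progenitor cells. The 250 bases before the RefSeq start (GRCm38.p6) are shown for Neurog2 and Eomes, the factors of progenitors, which were together in 6 IPC cells, and for Prox1 at its first listed start and Nhlh1, which were both read in the IPC cell with the most neuroblast markers. Capitals mark each E-box, CANNTG on either strand.
Neurog2, chr3:127632886-127633135, plus strand: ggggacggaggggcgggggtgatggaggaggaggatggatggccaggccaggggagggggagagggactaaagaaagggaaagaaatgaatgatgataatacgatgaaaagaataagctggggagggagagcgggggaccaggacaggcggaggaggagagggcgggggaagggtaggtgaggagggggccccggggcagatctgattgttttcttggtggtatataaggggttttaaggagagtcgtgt
Eomes, chr9:118477939-118478188, plus strand: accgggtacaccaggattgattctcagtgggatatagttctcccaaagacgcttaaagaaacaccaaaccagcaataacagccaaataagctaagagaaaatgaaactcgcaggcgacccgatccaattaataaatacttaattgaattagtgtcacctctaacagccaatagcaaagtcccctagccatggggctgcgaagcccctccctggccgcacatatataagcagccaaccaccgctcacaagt
Prox1, chr1:190170828-190171077, minus strand: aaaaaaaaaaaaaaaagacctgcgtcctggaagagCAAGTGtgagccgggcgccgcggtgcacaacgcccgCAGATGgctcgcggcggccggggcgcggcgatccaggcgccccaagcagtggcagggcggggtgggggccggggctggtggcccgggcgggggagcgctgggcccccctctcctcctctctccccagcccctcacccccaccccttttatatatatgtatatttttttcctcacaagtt
Nhlh1, chr1:172057597-172057846, minus strand: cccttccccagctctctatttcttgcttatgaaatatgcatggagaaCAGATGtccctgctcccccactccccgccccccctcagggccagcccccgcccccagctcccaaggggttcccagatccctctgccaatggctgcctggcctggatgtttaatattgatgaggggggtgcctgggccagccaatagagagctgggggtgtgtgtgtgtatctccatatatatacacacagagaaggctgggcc
The Neurog2 and Eomes windows hold 0 E-boxes. The Prox1 window holds 2, with the first base at positions -215 and -179 from the start, and the Nhlh1 window 1, at -203. The window at the second listed start of Prox1 holds 0. Of all 32851 RefSeq windows of the same length, 66.2% hold at least 1 E-box, and 14.4% hold CAGATG or its reverse complement, a subset of CANNTG that occurs once in each of the printed Prox1 and Nhlh1 windows. The windows of the other members hold 1 E-box in Neurod1, 3 in Neurod2, 2 in Sox11, 1 in Sox4 and 0 at both starts of Neurod4. A match is a run of letters, not a shown binding site, and nothing about binding follows from these counts.

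Of the 9 factors, 8 were read in a larger share of cells in IPC than in qNSC or aNSC, the exception being Neurod2. Levels are given as log2(CPM + 1), where CPM is the count scaled to a total of 1000000 per cell. Eomes, which marks intermediate progenitors, had a mean of 0 in qNSC, 0.31 ± 0.92 in aNSC and 4.92 ± 3.99 in IPC (SD over 60, 18 and 11 cells). It had a read in 0 of 60 qNSC cells (3 of 60 cells would be 5%, and the exact 95% upper bound is 5.96%), in 2 of 18 aNSC cells with 2 and 4 reads, and in 7 of 11 IPC cells (63.6%, exact 95% binomial interval 30.8 to 89.1). Neurog2, the proneural factor upstream of Eomes in the embryonic mouse cortex, had means of 0.06 ± 0.30, 0.82 ± 1.99 and 5.80 ± 4.06 in qNSC, aNSC and IPC. Its reads lay in 3 of 60 qNSC cells with at most 2 reads each, in 3 of 18 aNSC cells and in 8 of 11 IPC cells (72.7%, 39.03 to 94.0).

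**Figure D1:**
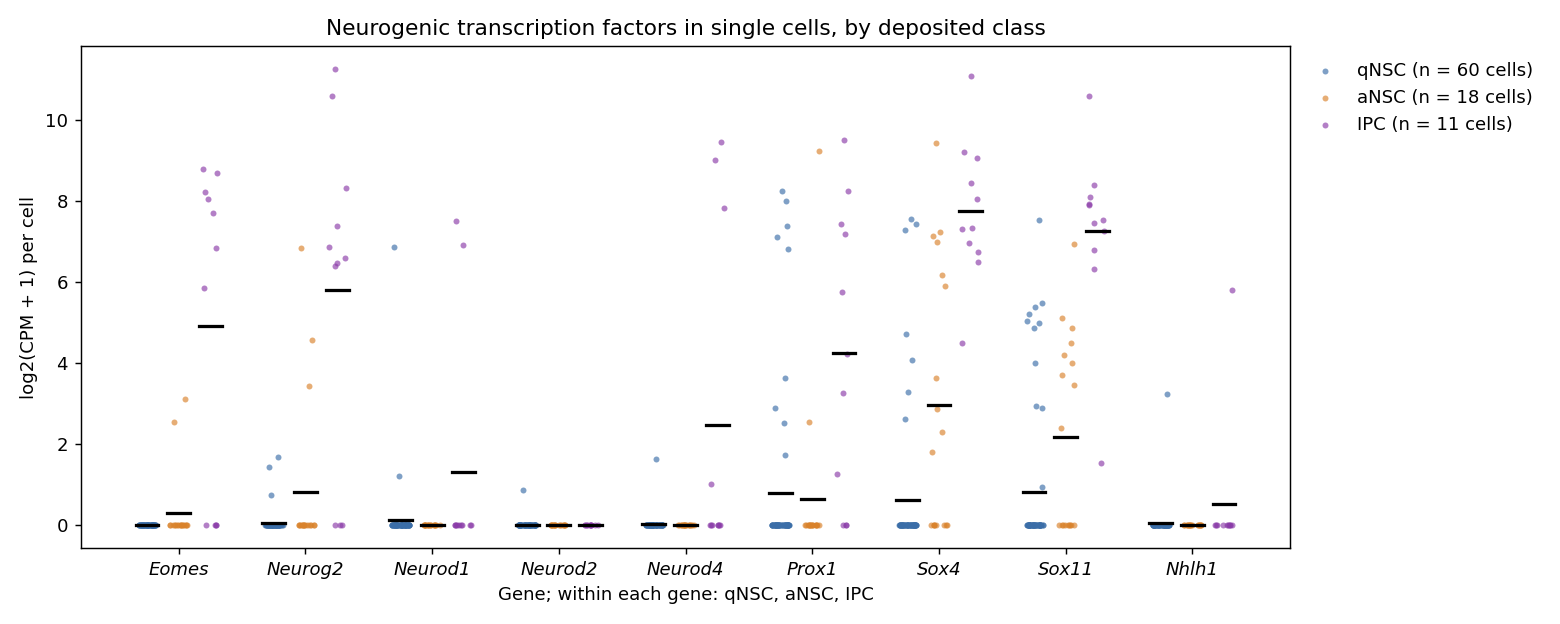
Level of each factor in every cell, as log2(CPM + 1) on the vertical axis, with qNSC, aNSC and IPC cells from left to right within each gene; points are cells and black lines are means over cells. Eomes, Neurog2, Sox4 and Sox11 had their highest means in IPC (4.92, 5.80, 7.75 and 7.26), Sox4 and Sox11 also had reads in 10 and 9 of 18 aNSC cells, and Neurod2 stayed at or near 0 in all 3 classes.

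The SoxC factors were the only members read in every IPC cell. Sox4 had means of 0.62 ± 1.84 in qNSC, 2.97 ± 3.30 in aNSC and 7.75 ± 1.72 in IPC, with reads in 7 of 60, 10 of 18 and 11 of 11 cells. Sox11 had means of 0.82 ± 1.89, 2.18 ± 2.40 and 7.26 ± 2.19, with reads in 11 of 60, 9 of 18 and 11 of 11 cells. Both were thus read in about as many aNSC cells as not and in a minority of the qNSC cells. Prox1, the homeobox factor of granule cell identity, was read in 9 of 60 qNSC cells (15%, 7.10 to 26.6), in 2 of 18 aNSC cells (11.1%, 1.38 to 34.7) and in 8 of 11 IPC cells (72.7%, 39.03 to 94.0), with means of 0.81 ± 2.16, 0.66 ± 2.23 and 4.26 ± 3.59. Its intervals for qNSC and aNSC overlap over most of their length.

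The remaining bHLH factors were read in few cells. Neurod4 was read in 1 qNSC cell with 1 read, in 0 of 18 aNSC cells and in 4 of 11 IPC cells, and averaged 0.03 ± 0.21, 0 and 2.48 ± 4.07 in qNSC, aNSC and IPC. Neurod1 was found in 2 qNSC cells and 2 IPC cells but in 0 of the 18 aNSC cells, with a mean of 1.31 ± 2.92 in IPC. Nhlh1 had 62 reads in 1 IPC cell and 2 reads in 1 qNSC cell. Neurod2 had a single read in the whole series, in 1 red qNSC cell at 2 months, and none in 18 aNSC and 11 IPC cells. There 3 cells would be 16.7% and 27.3%, and the exact 95% upper bounds are 18.5% and 28.5%.

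**Figure D2:**
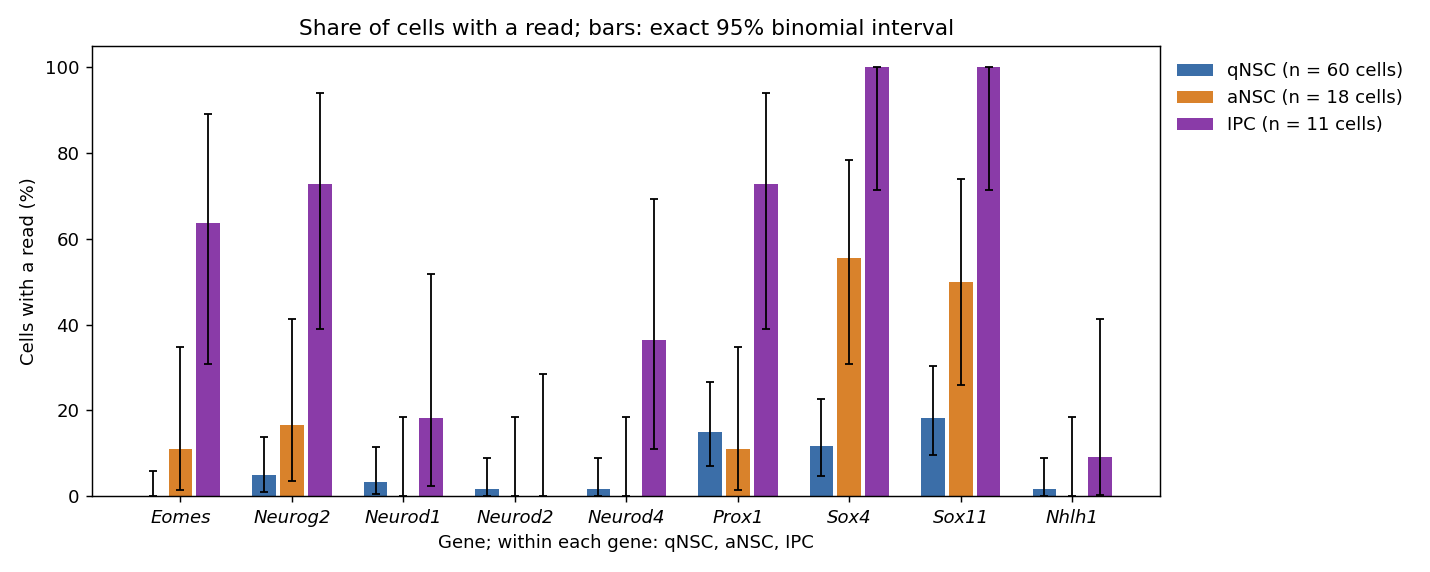
Percentage of cells with at least 1 read of each factor in qNSC, aNSC and IPC; bars are shares and whiskers exact 95% binomial intervals, which cover counting error only. Sox4 and Sox11 reach 100% in IPC, Neurog2 and Prox1 72.7% and Eomes 63.6%, while Neurod1, Neurod2, Neurod4 and Nhlh1 stay below 40%, with wide whiskers at 11 cells.

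Levels of different genes were compared as deposited TPM, which is scaled for length. In the 11 IPC cells the median TPM was 94.2 for Sox4, 67.2 for Neurog2, 39.8 for Eomes, 33.6 for Sox11 and 5.5 for Prox1, and 0 for Neurod1, Neurod2, Neurod4 and Nhlh1. Means ranked Neurog2 first with 340 TPM, ahead of Sox4 with 241, Eomes with 68.9, Neurod4 with 60.6, Sox11 with 58.9, Prox1 with 54.5, Neurod1 with 19.2 and Nhlh1 with 3.89 TPM. The 2 orders differ, and single cells stood far above the median, the highest Neurog2 cell having 1949 TPM and the highest Sox4 cell 1419 TPM. Ranges over cells overlapped between every pair of neighbours in either order, so the order is not resolved beyond the spread between cells.

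Class differences were also read against all genes. A gene was said to meet the size rule where 20% or more of the cells in one of the groups had a read of it and the groups differed in 1 direction by at least 1 in mean log2(CPM + 1), 2-fold in summed CPM and 15 percentage points in the share of cells. In IPC against aNSC, 6 of the 9 members (Eomes, Neurog2, Neurod4, Prox1, Sox4 and Sox11) met the rule as higher and 0 as lower. The other 3 were read in too few cells to enter it. Eomes, Neurog2, Neurod4 and Prox1 were read in under 20% of aNSC cells and entered through IPC alone. These genes could therefore not meet the rule as lower. Of 9395 genes that entered the rule, 13.5% met it as higher. Mean differences were 4.61 for Eomes, 4.98 for Neurog2, 2.48 for Neurod4, 3.61 for Prox1, 4.77 for Sox4 and 5.08 for Sox11, and the median over all genes entered was -0.04. Summed over cells, Eomes stood at 126 CPM (exact 95% Poisson interval 120 to 134) in IPC and 0.383 CPM (0.140 to 0.833) in aNSC, Neurog2 at 355 and 6.76 CPM, Sox11 at 333 and 9.88 CPM, Sox4 at 478 and 81.9 CPM and Prox1 at 137 and 28.2 CPM. Neurod4 had 106 CPM in IPC and 0 reads in aNSC, at least 553-fold higher with a floor of 3 counts over the aNSC cells.

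Against the 11 aNSC cells with fewer than 10 Pdgfra reads, called cells without Pdgfra here, the same 6 members again met the rule as higher, where 19.3% of 8787 genes did. Eomes, Neurod4 and Prox1 again entered through IPC alone. Within aNSC, Neurog2 was read in 0 of 7 cells with Pdgfra and 3 of 11 cells without. Sox4 was read in 3 of 7 and 7 of 11, and Sox11 in 4 of 7 and 5 of 11. The aNSC cell with most Prox1, at 438 reads or 9.24 on the log2(CPM + 1) scale, was a 4.5-month cell with at least 50% of the oligodendrocyte precursor markers, and the other aNSC cell with Prox1 had 4 reads.

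Between aNSC and qNSC, only Sox4 and Sox11 of the 9 members entered the rule, both through aNSC alone, so neither could meet it as lower. Of these, Sox4 met it as higher. Of 8878 genes entered, 21.1% met it as higher. Sox4 differed by 2.36 in mean log2(CPM + 1), against a median of 0.80 over all genes entered. Sox11 differed by 1.36 in mean log2(CPM + 1) but by only 1.46-fold in summed CPM (9.88 in aNSC and 6.75 in qNSC), and its highest cells had 32 reads in aNSC and 139 reads in qNSC. Prox1 differed by -0.15, with summed CPM of 28.2 in aNSC and 17.98 in qNSC. In IPC against qNSC the same 6 members as against aNSC met the rule as higher, where 31.8% of 8502 genes did. All 6 were read in under 20% of qNSC cells and entered through IPC alone, so none could meet it as lower. Mean differences were 7.13 for Sox4, 6.44 for Sox11, 5.74 for Neurog2, 4.92 for Eomes, 3.46 for Prox1 and 2.46 for Neurod4. The median over all genes entered was 0.92. These comparisons share the IPC, aNSC or qNSC cells and are not independent.

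The 11 IPC cells were then taken one by one and are named A to F at 4.5 months and G to K at 2 months. Eomes had 187, 190, 108, 395, 0 and 56 reads in cells A to F, against 0, 0, 129, 215 and 0 reads in cells G to K. Of the 4.5-month cells 5 of 6, and of the 2-month cells 2 of 5, carried it. Neurog2 had 62, 0, 79, 2208, 183 and 113 reads in cells A to F, against 0, 133, 479, 333 and 0 in cells G to K. Cell D, and cell I with its low total of 312948 counts, held the highest levels of Neurog2, 11.26 and 10.58 on the log2(CPM + 1) scale. Eomes and Neurog2 were together at 10 or more reads in 6 cells, cell B carried Eomes alone, cells E and H Neurog2 alone, and cells G and K neither.

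Sox4 had 111, 14, 561, 315, 590 and 122 reads in cells A to F, against 2478, 368, 33, 94 and 152 in cells G to K. Sox11 had 56, 157, 145, 304, 122 and 181 reads in cells A to F, against 1747, 379, 55, 2 and 225 in cells G to K. Cell G was highest for both SoxC genes, and cell J was the only IPC cell with fewer than 10 reads of Sox11. Prox1 had 1, 34, 17, 154, 0 and 297 reads in cells A to F, against 830, 12, 45, 0 and 0 in cells G to K, so that the values at the 2 ages overlapped and cell G was again highest.

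Neurod4 was read at 498 and 334 reads in cells A and B, at 1 read in cell F and at 237 reads in cell J. All 3 cells with 10 or more reads of Neurod4 also carried Eomes. Neurod1 was read in cells F and G alone, with 178 and 136 reads, and both of these carried Prox1, with 297 and 830 reads. No cell had 10 or more reads of both Neurod1 and Neurod4. Nhlh1, a bHLH factor of young neurons, was read among IPC cells in cell G alone.

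**Figure D3:**
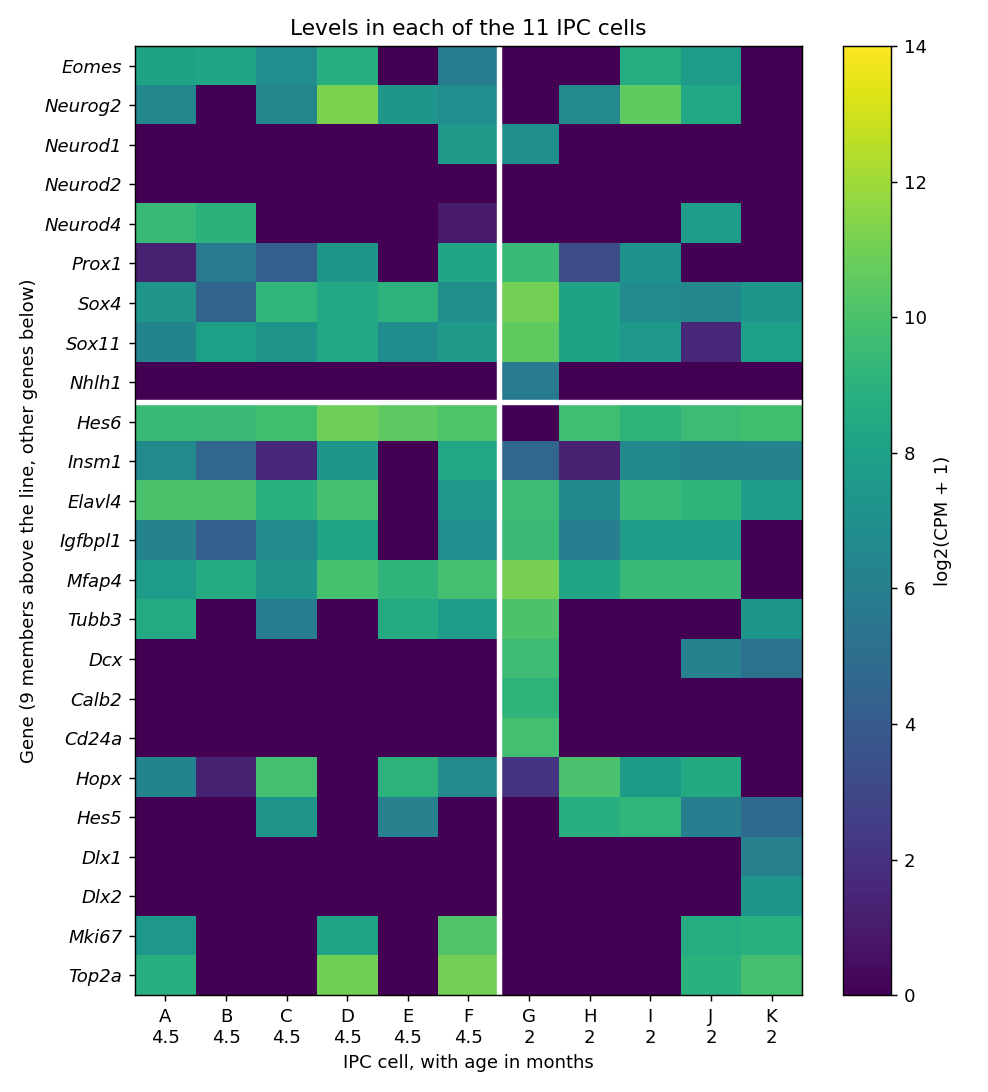
Level of the 9 factors (above the horizontal line) and of 15 other genes (below it) in each IPC cell, as log2(CPM + 1) on the colour scale; cells A to F are of 4.5 months and G to K of 2 months. Cell G combines Neurod1, Prox1, Nhlh1, Dcx and Calb2 with no Eomes, Neurog2, Hes6 or Mki67, and cell K has Dlx1 and Dlx2 but no Eomes, Neurog2 or Prox1.

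Other genes of the same cells, chosen after their values were seen, are given beside the factors. Cell G had 909 reads of Dcx, 1231 of Tubb3, 616 of Calb2 and 1017 of Cd24a, which are genes of young neurons, and 0 of Hes6, Mki67 and Top2a. Of 12 neuroblast and immature granule neuron markers it had 10 or more reads of 9, against at most 5 in the other IPC cells, although Prox1 is itself one of the 12. Calb2 and Cd24a were at 0 in the other 10 cells. Cell F, the other cell with Neurod1, had 10 or more reads of all 20 G2/M genes examined, with 1140 reads of Mki67 and 2074 of Top2a. Neurod1 therefore lay once in a cell with a full G2/M set and once in a cell with 1 of the 20.

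Eomes and Neurog2 were found in cells with and without G2/M transcripts. Among the 6 cells with both, the number of G2/M genes at 10 or more reads was 9 in A, 2 in C, 19 in D, 20 in F, 1 in I and 13 in J. Cell E, with Neurog2 but no Eomes, had 0, and cell H, also with Neurog2 but no Eomes, had 1. Cells E and H had the highest Aldoc of the class, with 343 and 303 reads against 0 to 16 in the other 9 cells. Aldoc is a gene of quiescent stem cells and astrocytes. Other stem cell genes did not set E and H apart: Hopx had 593 and 1414 reads in E and H but also 845 in C, Hes5 had 76 and 629 reads but also 145 in C and 178 in I, and of 10 stem cell and glial genes 6 in E and 7 in H reached 10 reads, against 9 in I and 7 in J.

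Cell K carried none of Eomes, Neurog2, Neurod1, Neurod4, Prox1 and Nhlh1, and of the 9 factors had reads of Sox4 and Sox11 alone. It had 64 reads of Dlx1 and 152 of Dlx2, factors of the interneuron lineage that were at 0 in the other 10 IPC cells, with 36 reads of Dcx. Of the 7 progenitor markers used to look at the class it had 5 at 10 or more reads. Among them were Hes6 with 803, Elavl4 with 205 and Insm1 with 71 reads, while Igfbpl1 and Mfap4 were at 0. Of the 8 interneuron markers, 2 were at 10 or more reads in cell K, with Gad1 and Gad2 at 0. All 20 G2/M genes were at 10 or more reads in this cell. Its class label was kept as deposited.

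IPC cells had 10 or more reads of a median of 5 of the 9 factors (range 2 to 6), while aNSC cells had a median of 1 (at most 2) and qNSC cells a median of 0 (at most 2). At least 2 factors were present at that level in 3 of 60 qNSC cells, 3 of 18 aNSC cells and 11 of 11 IPC cells. The fewest were in cell K with 2 and cell E with 3, and the most in cell F with 6.

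Dimer partners, antagonists and targets of the proneural factors were described as gene lists. Of 3 E proteins, Tcf3 met the rule as higher in IPC against aNSC, where 13.5% of all genes entered did. Its means were 5.69 ± 2.85 in IPC and 2.98 ± 3.33 in aNSC, and the list median difference was 1.72. Against the aNSC cells without Pdgfra, 0 of the 3 met it. Of 9 antagonists, 8 entered the rule and 5 met it as lower, Id4, Hes1, Id3, Hey1 and Rest, with differences of -3.61, -3.49, -3.04, -2.65 and -1.85, and 0 met it as higher. Id proteins bind E proteins and keep them from proneural factors, Hes1 and Hey1 are repressors downstream of Notch, and Rest represses neuronal genes outside neurons. The antagonists' list median was -2.39, while 18.3% of all genes entered met the rule as lower and their median was -0.04. Hes1 was read in 1 of 11 IPC cells (9.09%) and in 66.7% of aNSC cells.

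Among 30 other neurogenic transcription factors, 19 entered the rule in IPC against aNSC, with a list median of 1.67. Of these, 11 met it as higher, where 13.5% of all genes did, and 1, Ebf1, as lower, where 18.3% did. Only 13 of the 30 entered between aNSC and qNSC, so some entered here through IPC alone and could not be lower. The largest differences were 4.72 for Hes6, 4.69 for Insm1, 4.17 for Zbtb18, 3.30 for Emx2 and 2.60 for Tfap2c. Insm1, a zinc finger factor of basal progenitors, was read in 90.9% of IPC and 5.56% of aNSC cells. When only the 11 aNSC cells without Pdgfra were used, 4 of 16 entered met the rule as higher and 0 as lower, where 19.3% of all genes were higher, so the share was near that of all genes. Of 9 genes known as proneural targets in the embryonic mouse nervous system, 7 entered. Higher were 4 of them, Hes6, Gadd45g, Dll3 and Mfng, where 13.5% of all genes were. Only 4 of the 9 entered between aNSC and qNSC, so some entered here through IPC alone. Hes6 also counts among the other neurogenic factors above. Against the aNSC cells without Pdgfra 2 of 7 were higher, again near the share of all genes.

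Of 20 neuroblast effectors, 17 entered and 10 met the rule as higher, where 13.5% of all genes did. The largest differences were 7.27 for Mfap4, 5.58 for Igfbpl1, 5.06 for Elavl4, 4.55 for Dbn1 and 4.46 for Elavl2. None met it as lower, and the list median was 2.49. Only 9 of the 20 entered between aNSC and qNSC, so some entered here through IPC alone and could not be lower. Elavl2 and Elavl4 are neuronal RNA-binding proteins and Dbn1 is an actin-binding protein of neurites. Cell cycle genes moved alongside: 19 of 19 G2/M genes and 12 of 20 G1/S genes entered met the rule as higher. Of all genes entered, 13.5% did. Between aNSC and qNSC only 1 of the 20 G2/M genes entered. The others that entered here did so through IPC alone and could not be lower. Of 9 stem cell and glial genes entered, 3 met the rule as lower (Aldoc, Id4 and Gfap), where 18.3% of all genes did. Against the aNSC cells without Pdgfra 6 of 9 did, where 18.1% of all genes were lower. The part of the cell cycle and of class assignment in the factors' differences was not tested.

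The genes whose levels over the 89 cells were most like those of a factor are given by Pearson's r of log2(CPM + 1) among 9516 genes read in at least 10% of cells, for the 5 factors read in at least 9 cells. For Eomes these were Elavl2 (0.89), Igfbpl1 (0.81) and Insm1 (0.80), and for Neurog2 Mfap4 (0.85), Elavl2 (0.75) and Igfbpl1 (0.75). For Prox1 they were Igfbpl1 (0.52), LOC100861615 (0.50) and Vps9d1 (0.49). Sox4 was most like Trp53i11 (0.66), Tmsb10 (0.64) and Igfbpl1 (0.61), and Sox11 like Igfbpl1 (0.64), Mfap4 (0.63) and Tmsb10 (0.62). Points share the class structure, because most are at 0 outside IPC. Within the 11 IPC cells, r was 0.76 for Eomes with Elavl2, 0.02 for Sox11 with Igfbpl1 and -0.33 for Sox4 with Trp53i11. Between the factors, r was 0.75 for Eomes with Neurog2 over 89 cells and 0.47 within the 11 IPC cells, and for Sox4 with Sox11 it was 0.55 and 0.43 over the same cells. Several pairs were negative within IPC: r was 0.46 and -0.54 for Eomes with Sox4, 0.51 and -0.37 for Eomes with Sox11, and 0.52 and -0.39 for Neurog2 with Sox11, over 89 and 11 cells in each case.

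In qNSC, the 2 ages differed in Sox11. Sox11 was read in 1 of 28 cells (3.57%, 0.0904 to 18.3) at 4.5 months, with 1 read, against 10 of 32 cells (31.2%, 16.1 to 50.01) at 2 months, with 3 to 139 reads. With a limit of 10 reads the counts were 0 of 28 and 8 of 32. The mean difference was -1.48 in log2(CPM + 1), 0.03 ± 0.18 at 4.5 months and 1.51 ± 2.39 at 2 months. Of the 9 members only Prox1 and Sox11 entered the rule, both through the 2-month cells alone, so neither could meet it as higher. Sox11 met it as lower. Of 7247 genes entered 5.62% did so, and their median was -0.22. For Sox11, 2 other scales were tried. On log2(TPM + 1) the difference was -0.82 and with a pseudocount of 10 it was -0.62, and neither met the rule.

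The median qNSC cell had 865574 counts at 4.5 months and 1051924 at 2 months. After thinning every cell to 445311 reads, Sox11 was read in 0 of 25 cells at 4.5 months against 10 of 30 at 2 months, with 3 and 2 shallower cells left out. The authors' colours of the qNSC cells, named green (25 cells), red (26) and blue (9) after their codes, have no stated meaning. Sox11 was read in 0 of 10 green cells at 4.5 months against 5 of 15 at 2 months, in 1 of 13 red cells against 4 of 13, and in 0 of 5 blue cells against 1 of 4, so that the 4.5-month count was the lower one within each colour.

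The 8 qNSC cells with 10 or more reads of Sox11 had reads of stem cell genes. Each had at least 810 reads of Hopx and 5064 of Aldoc. Of all 60 qNSC cells, 59 had 10 or more reads of Hopx and 60 of Aldoc, so these genes do not set the 8 apart. In 7 of the 8, Hes5 had 10 or more reads. The remaining cell had 0 reads of Hes5, so 7 of the 8 also had any read of it. All 8 were 2-month cells, and 78.1% of all qNSC cells of that age had a read of Hes5, so its presence does not set them apart. Its median was 206 reads in the 8 cells and 35.5 in all 60 qNSC cells of both ages. Age is not held equal between these medians. None of the 8 had 10 or more reads of Igfbpl1, Mfap4, Insm1 or Dcx, and among all 60 qNSC cells only Dcx reached that number, in 1 cell. Stmn1, one of the neuroblast effectors, had 10 or more reads in 5 of the 8 cells and in 35 of all 60. Its medians were 287 and 62 reads, again with both ages among the 60. In 2 of the 8, cells of green and blue colour at 2 months, Prox1 was present with 111 and 124 reads beside 33 and 27 reads of Sox11.

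**Figure D4:**
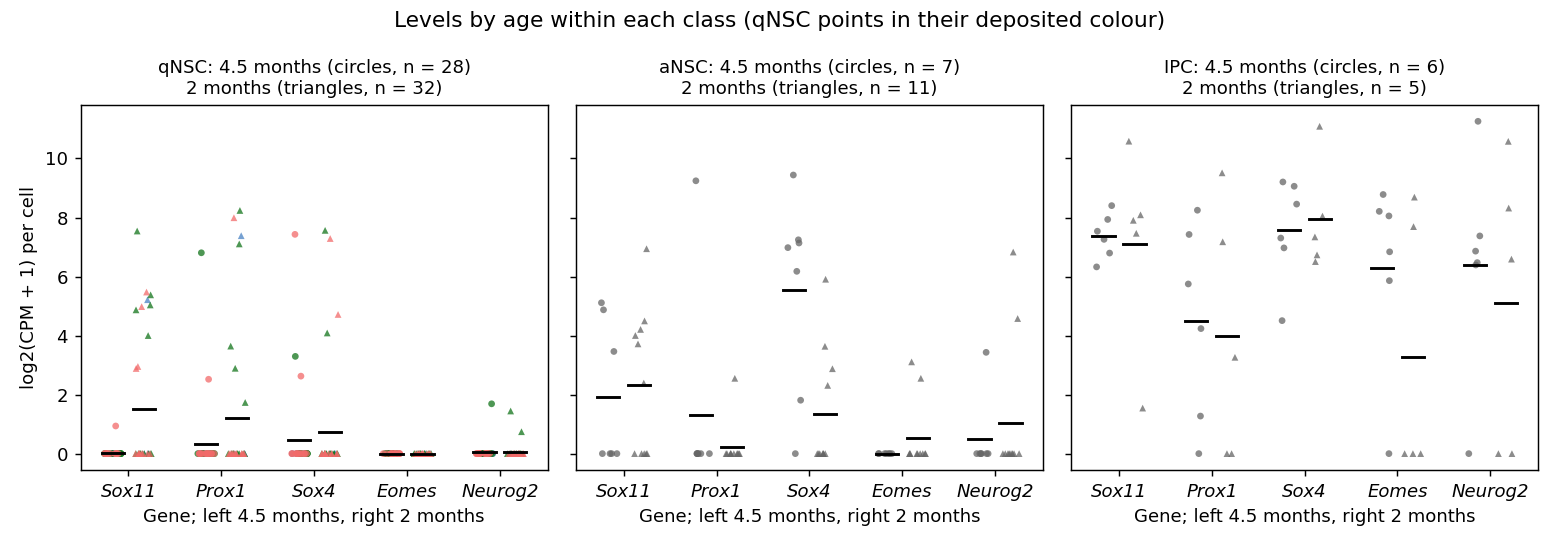
Levels of Sox11, Prox1, Sox4, Eomes and Neurog2 by age in qNSC, aNSC and IPC cells, as log2(CPM + 1), with 4.5-month cells as circles on the left of each pair and 2-month cells as triangles on the right; black lines are means over cells and qNSC points take the authors' colour. In qNSC, Sox11 lies above 0 in 1 of 28 cells at 4.5 months against 10 of 32 at 2 months, and in aNSC Sox4 averages 5.54 at 4.5 months and 1.34 at 2 months.

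Prox1 in qNSC was read in 2 of 28 cells (7.14%, 0.877 to 23.5) at 4.5 months, with 4 and 131 reads, against 7 of 32 cells (21.9%, 9.28 to 39.97) at 2 months, with 2 to 329 reads. The intervals overlap, and the mean difference of -0.89 did not meet the size rule. The cell with 4 reads at 4.5 months also had endothelial markers. Green cells held 6 of the 9 qNSC cells with Prox1, 1 of 10 at 4.5 months against 5 of 15 at 2 months. Sox4 was read in 3 of 28 cells at 4.5 months against 4 of 32 at 2 months, a mean difference of -0.26. Neurod1 had 105 reads in 1 red qNSC cell at 4.5 months, a level of 6.86 on the log2(CPM + 1) scale and close to the 6.91 of cell G, and 1 read in a blue cell at 2 months.

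No member met the size rule between a colour of qNSC and the other qNSC cells, but most were read in too few cells to enter it. Prox1 and Sox11 entered for green, Prox1 alone for red and 0 members for blue, where the outcome was thus fixed. Of all genes entered, 7.51% were higher and 3.48% lower for green. The shares were 4.08% and 4.22% for red, and 4.19% and 15.7% for blue. Sox11 was read in 5 of 25 green, 5 of 26 red and 1 of 9 blue cells, and Prox1 in 6 of 25, 2 of 26 and 1 of 9. Neurog2 was read in 3 of 25 green cells, with at most 2 reads, and in 0 of 26 red and 0 of 9 blue cells. Sox4 was read in 3 of 25, 4 of 26 and 0 of 9. The 9 blue cells had the lowest median total, 793965 counts.

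Of 7247 genes entered between the ages in qNSC, 5.62% met the rule as lower and 2.53% as higher. Hes5, a Notch effector, met the rule as lower with 35.7% of cells at 4.5 months against 78.1% at 2 months and a difference of -3.11, as did Emx1 (-1.94) and Dbn1 (-1.86). That was 1 of 8 antagonists entered, 1 of 10 other neurogenic factors and 1 of 5 neuroblast effectors, and Hes5 also counts among the 9 stem cell and glial genes entered. Each share rests on 1 gene and is not read as different from that of all genes. In these lists 0 genes were higher.

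In aNSC, Sox4 was higher at 4.5 months. It was read in 6 of 7 cells at 4.5 months, with 132, 760, 2, 51, 110 and 109 reads, against 4 of 11 cells at 2 months, with 112, 1, 3 and 5 reads. The cells with 132 and 109 reads had oligodendrocyte precursor markers. The 2-month cell with 112 reads had endothelial and mural markers. The groups overlap, and the mean was 5.54 ± 3.36 at 4.5 months and 1.34 ± 2.05 at 2 months. Of the 9 members only Sox4 and Sox11 entered the rule, and Sox4 met it as higher. Of 9323 genes entered 11.6% did, and their median was -0.15. A count of 1 is no result about the members as a set. Sox4 met the rule also when cells with markers of other types were left out. In cells without Pdgfra it was read in 4 of 4 cells at 4.5 months against 3 of 7 at 2 months, and in those with Pdgfra in 2 of 3 and 1 of 4. Depth in cells without Pdgfra was lower at 2 months, with medians of 838586 counts at 4.5 months and 472000 at 2 months. Sox11 was read in 3 of 7 cells at 4.5 months against 6 of 11 at 2 months, a difference of -0.42. Of 19 G1/S genes entered, 15 were lower at 4.5 months in the same cells and 0 higher, where 15.5% of all genes were lower, and their part in the Sox4 difference was not tested. Eomes was read in 0 of 7 and 2 of 11 cells and Neurog2 in 1 of 7 and 2 of 11, the most being 93 reads in a 2-month cell.

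In IPC, with 6 cells at 4.5 months and 5 at 2 months, 8 of the 9 members entered the rule. Of these 3 met it as higher at 4.5 months, where 7.95% of 10148 genes did, and 1 as lower, where 22.8% did. Eomes had means of 6.29 ± 3.26 and 3.28 ± 4.50, Neurog2 of 6.39 ± 3.63 and 5.10 ± 4.86 and Neurod4 of 3.25 ± 4.66 and 1.57 ± 3.50, at 4.5 and 2 months in each case. Nhlh1 met it as lower through cell G alone and, with 0 reads at 4.5 months, could not meet it as higher. The values overlapped for all 4 genes and rested on single cells: without cell K, which carries Dlx genes, Eomes and Neurog2 no longer met the rule. The same held without cell G for Eomes, Neurog2 and Nhlh1, and without cell D for Eomes and Neurog2. Without cell H Eomes, and without cell A or B Neurod4, no longer met it. Without cell G Prox1 also met it as higher, and without cell F Neurod1 as lower. Sox4, Sox11 and Prox1 differed by -0.36, 0.26 and 0.50 in the mean, less than the SD over cells at either age. In summed CPM, where cell G weighs most, Sox11 had 182 at 4.5 months and 498 at 2 months and Prox1 95.03 and 184, the opposite direction to their means. The median over all genes entered was -0.43.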

How the data were processed

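Each sample was 1 cell, amplified with the SMART-Seq v4 kit and sequenced after Nextera XT library preparation, per the labels' protocols. The values used were estimated counts by gene, deposited for every cell, and the authors' TPM, which sums to 1000000 in each cell; STAR, RSEM and mm10 are listed, without versions, in the submitters' processing notes. Of the estimated counts above 0 deposited, 4.44% differed from a whole number by over 1e-06; all were rounded here. Another deposited table gave class and colour. No deposited column was left unused.

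Counts were scaled to CPM and taken as log2(CPM + 1), with Clopper-Pearson and Poisson 95% intervals, in Python 3.11.15 (pandas 2.3.3, numpy 2.4.6, scipy 1.17.1, matplotlib 3.10.9). Totals per cell are in the text; intervals cover counting error only, since no molecular identifiers were used. A floor of 3 counts over a group bounds folds against 0. Positions came from GENCODE M21 and sequences from RefSeq (GRCm38.p6), with all 9 factors matched. Named are the 9 factors, at most 5 genes each way from each list that met the size rule, and the 3 genes most like each factor; other genes named in single cells were chosen after their values were seen. The factors and lists were chosen with earlier results of these data known. Alternatives tried were log2(TPM + 1), a pseudocount of 10, thinning, leaving out cells with markers of other types or single IPC cells, no filter, summed counts alone, 10 reads as limit, and Spearman's rho. Values of some genes are not reported here.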

Additional observations from a re-analysis of the deposited data

Results flagged for a closer look

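A gap test was applied to 19 sets of values, each 1 factor in 1 of the 3 groups of 4 to 10 cells of a class and age, and 7 had an end cell set far apart from the others. The test's usual chance rate of about 1 in 20 cannot be used here: 6 of the 7 are factors read in 1 cell of the group, which the test always marks, and the sets share cells. Eomes was at 0 in cell E, the lowest of the 6 IPC cells at 4.5 months, with the next at 5.86 on the log2(CPM + 1) scale. Neurod1 was at 7.51 in cell F and at 0 in the other 5 IPC cells at 4.5 months, and at 6.91 in cell G and at 0 in the other 4 IPC cells at 2 months. Neurod4 was at 7.83 in cell J and Nhlh1 at 5.80 in cell G, each at 0 in the other 4 IPC cells at 2 months. In aNSC at 4.5 months, Prox1 was at 9.24 and Neurog2 at 3.43 in 1 cell each and at 0 in the other 6. The Prox1 cell had markers of oligodendrocyte precursors; their part in its Prox1 level was not tested.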

How the results depend on the processing

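In IPC against aNSC and IPC against qNSC, 6 members met the size rule and 6 or 7 did under every alternative run, the seventh being Neurod1. In the main run Neurod1 was read in 18.2% of IPC cells, under the 20% needed to enter the rule. In aNSC against qNSC, 1 member met it, against 3 without cells carrying markers of other types (Neurog2, Sox4 and Sox11) and 2 with aNSC cells under 10 Pdgfra reads (Neurog2 and Sox4). For the ages in qNSC, 1 member met it, against 0 on log2(TPM + 1), 0 with a pseudocount of 10 and 2 by the ratio of summed counts alone. For the ages in IPC, 4 met it, against 2 with a pseudocount of 10 and 2 to 5 leaving out single cells, with 2 without cell D, G or K. For the green and red colours, 0 met it, against 1 each by the ratio of summed counts alone. Of the 15 genes most like a factor, 7 were shared when Spearman's rho was used. The cause of these changes was not tested. Over single members and comparisons, 751 values moved by less than 1 SD over cells and 23 by more, and no called value changed sign.

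No paired analysis was possible because no test was run: the labels name no animals. Depth limits the detection of a factor at 1 read in any single cell, and 11 IPC and 9 blue cells give wide intervals.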
